A study of Mus musculus with 2 samples.

Results

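Chil4, Chil3, Chia1 and Chil1 are 4 mouse genes of the chitinase and chitinase-like family, chosen by their summed levels in the cell classes of these same libraries, in which Chil4 stood out in polyp epithelium, and all 4 were among the 32285 genes of the matrices. Their levels were read in 2 single-cell libraries. Lkb1_Het was 1 library from the polyps of 3 mice of genotype Lkb1flox/+;Myh11-Cre/ERT2, in which a single Lkb1 allele is floxed. WT was 1 library from the normal duodenum of 3 mice of genotype Lkb1+/+;Myh11-Cre/ERT2, which carry the same Cre and no floxed allele. Myh11-Cre/ERT2 is a tamoxifen-dependent recombinase driven by a smooth muscle promoter, and Lkb1 (also called Stk11) is a kinase. Tamoxifen dose, age and sex are not in the labels used here. The source label of both libraries named duodenum, so where in the gut the polyps lay remained uncertain. Neither library kept its 3 mice distinguishable, and no value had a replicate. Intervals therefore cover counting error only and no test between the libraries was possible.

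Chitinases cut chitin, the polymer of fungal walls and of the exoskeletons of arthropods. Chia1, acidic mammalian chitinase, is an active secreted enzyme best known from the chief cells of the mouse stomach and from lung. Chil3 (Ym1), Chil4 (Ym2) and Chil1 (the mouse counterpart of human YKL-40) keep the fold of the enzyme but lack its cutting activity. Chil3 is a standard marker of mouse macrophages exposed to IL-4 or IL-13, and Chil4 is known as a gene that mouse airway epithelium switches on in type 2 inflammation. Chil1 is known from activated macrophages, neutrophils, epithelium and mesenchymal cells.

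Chil4 and Chil3 lie side by side on the minus strand of chromosome 3, and their likeness bears on every count. In the mm10 annotation Chil4 (ENSMUSG00000063779) spans chr3:106201490-106219507 and Chil3 (ENSMUSG00000040809) spans chr3:106147554-106167564. Chia1 (ENSMUSG00000062778) lies next to Chil3 on the plus strand at chr3:106113229-106132120, and Chil1 (ENSMUSG00000064246) lies apart at chr1:134182176-134190181, also on the plus strand. The following stretches of the RefSeq promoters (GRCm38.p6, minus strand, 5′ to 3′) are shown because of how alike the pair is around the annotated start. The first set of capitals in each marks a match to TTCNNNGAA, the letters of a STAT-family site, and the second marks TATAAA.
Chil4, chr3:106219501-106219689: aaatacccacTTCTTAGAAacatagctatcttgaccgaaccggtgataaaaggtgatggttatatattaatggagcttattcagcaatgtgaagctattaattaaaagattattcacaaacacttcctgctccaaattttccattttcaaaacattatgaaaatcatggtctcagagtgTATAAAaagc
Chil3, chr3:106167558-106167746: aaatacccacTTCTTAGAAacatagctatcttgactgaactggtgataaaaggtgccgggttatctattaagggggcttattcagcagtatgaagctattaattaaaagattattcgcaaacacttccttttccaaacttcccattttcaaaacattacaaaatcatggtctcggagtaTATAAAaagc
Both stretches were 189 bases long, held the same 9 letters TTCTTAGAA and placed TATAAA after the same spacer of 160 bases. TATAAA began 31 bases before the RefSeq start of Chil4 but 3 bases before that of Chil3, so the RefSeq starts sit at different places in the shared sequence. The mm10 annotation puts both starts at the same place in that sequence, and both stretches reach past it. Of 188 aligned bases, 171 were identical (91.0%). Across all 32851 RefSeq promoter windows of 300 bases, read on both strands, TTCNNNGAA occurred in 8.30% and TATAAA in 13.6%. TTCNNNNGAA, the spacing preferred by STAT6, occurred in 6.95% of windows and in none of the 4 windows of these genes. Chia1 had 1 TATAAA and neither STAT spelling, and Chil1 had none of the 3 motifs. These are matches of letters only. The annotated transcripts of Chil3 and Chil4, each 1539 bases, matched at 94.4% of aligned bases, and their last 500 bases at 92.2%, with an identical run of 126 bases. Reads from such a run fit both genes, and how such reads were counted is not stated in the labels or headers, so the split between Chil3 and Chil4 is uncertain.

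The polyp library held 14327 barcodes with 63566462 UMIs (unique molecular identifiers, each a tagged RNA molecule) and the WT library held 9950 barcodes with 39222238 UMIs. After filters on UMIs, genes, mitochondrial share and doublets, 7887 polyp cells (median 2318 UMIs) and 3167 WT cells (median 2421 UMIs) were kept. The mitochondrial limit of 25% alone was exceeded by 39.1% of polyp barcodes and 64.9% of WT barcodes. The libraries shared 44 barcode sequences. Cells were put in a class when they held at least 3 UMIs from at least 2 markers of that class and at least 2 times those of every other class. Levels are summed UMIs of a gene per 1000000 UMIs of the class (CPM). The 2 epithelia differed in kind: the summed level of 5 gastric surface mucous genes (Tff1, Gkn1, Gkn2, Muc5ac, Gkn3) was 84722 CPM in polyp and 7709 CPM in WT epithelium, and all 5 were higher in the polyp. The summed level of 4 enterocyte genes (Fabp1, Apoa1, Alpi, Sis) was 33.0 CPM in polyp and 12704 CPM in WT epithelium, and all 4 were lower in the polyp. Genotype, site and epithelial kind thus cannot be told apart. A lower summed level can come from fewer expressing cells in a class or from less RNA in each.

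Chil4 was abundant in the polyp library and absent from the counts of the WT library. Over all deposited barcodes it had 48108 UMIs in the polyp library and 0 UMIs in WT. In epithelial cells its level was 972 CPM (95% Poisson interval 963 to 981, 4917 cells) in the polyp and 0 of 14514960 UMIs in 1436 WT cells. Taking 3 counts as the limit of a zero, that is at least 4703-fold. All 4 members were higher in polyp epithelium by the rule used here, a ratio past 1.5-fold with an interval clear of 1 or, against 0 UMIs, a bound past 1.5-fold. Over all 14080 genes with at least 20 UMIs, 28.3% were higher by that rule and 18.1% were lower, and the median log2 ratio was 0.15. Since the genes were picked for this contrast, the count of 4 describes them and no more.

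Chil4 UMIs also turned up outside the epithelium of the polyp library. Polyp macrophages had 90.4 CPM (66.9 to 120, 249 cells), against 0 UMIs in 20 WT macrophages. Polyp T cells had 103 CPM (84.9 to 124, 446 cells), against 0 UMIs in 804 WT T cells. Polyp stromal cells had 77.0 CPM (54.8 to 105, 202 cells), against 0 UMIs in 36 WT stromal cells. These 3 classes, which carry the defining markers of unrelated lineages, thus sat at about the same low level. Plasma cells of the polyp, a class not known to express the gene, had 38.5 CPM (30.3 to 48.3, 220 cells), and 25 polyp B cells had 150 CPM (64.7 to 295). The bounds against WT were at least 94.8-fold in T cells, 5.34-fold in stromal cells and 2.37-fold in macrophages, where few WT cells limited the depth. Chil4 was the single member with enough UMIs to be read in these classes, and it was higher in all 3. Over all genes read there, 16.1% were higher and 16.4% lower in T cells, 9.93% and 9.97% in stromal cells, and 7.93% and 6.28% in macrophages.

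**Figure D1:**
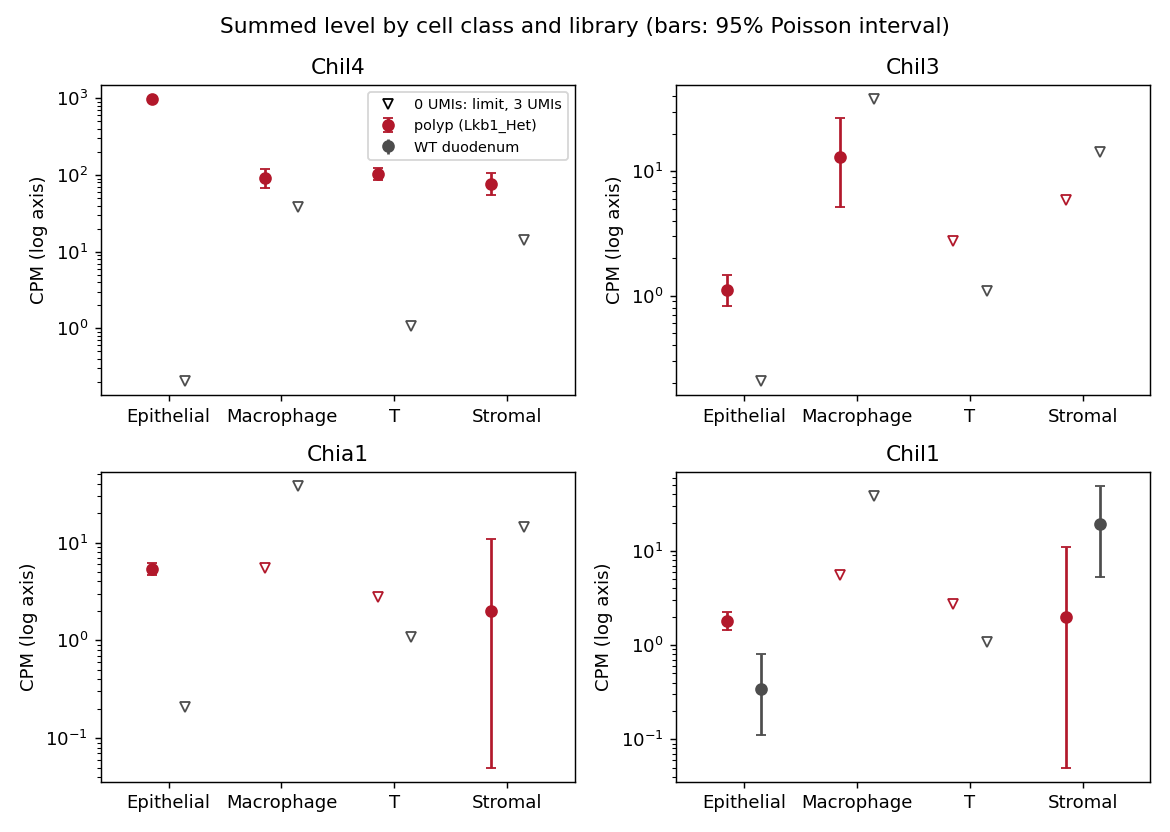
Summed level (CPM, log axis) of each gene in 4 cell classes of the polyp library (red) and the WT library (grey). Points are levels with 95% Poisson intervals, and open triangles mark the limit of 3 UMIs where a class held 0 UMIs. Chil4 stood at 972 CPM in polyp epithelium and between 77.0 and 103 CPM in the other 3 polyp classes, with every WT class at 0 UMIs.

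The share of cells with a Chil4 UMI said less than the level. It was 34.6% of polyp epithelial cells, 20.6% of T cells, 18.5% of macrophages and 15.3% of stromal cells, and 0 of 1436 WT epithelial cells, which allows a share of up to 0.209%. After each cell was thinned to 1000 UMIs it was 13.9% (12.8 to 14.97) of 3948 polyp epithelial cells, leaving out 969 shallower ones. In T cells, which should lack the gene, the thinned share was 10.5% (7.79 to 13.8) of 438 cells. It was 9.14% (5.32 to 14.4) of 175 macrophages and 8.88% (5.05 to 14.2) of 169 stromal cells. The epithelial interval overlapped those of the other 3 polyp classes, although the summed level was far higher in epithelium.

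Free RNA, molecules released from broken cells and caught with any barcode, gives UMIs in cells that do not make a gene, and the low level outside the epithelium was measured against it. Among 1338 polyp cells of named classes other than epithelium, no cell held more than 5 Chil4 UMIs. Their UMIs per cell were 0.124 in cells of 500 to 1000 UMIs, 0.194 at 1000 to 2000, 0.267 at 2000 to 5000, 0.259 at 5000 to 10000 and 0.573 above 10000. The level was lower in deeper cells, with 167 CPM in the shallowest bin, 35.7 CPM at 5000 to 10000 and 43.1 CPM in the deepest. Chil4 was then set against 8 secretory genes of the epithelium (Tff1, Tff2, Reg3b, Reg3g, Gast, Cblif, Cxcl17 and Mug1), since free RNA from 1 source keeps its genes in 1 ratio in every class. Polyp T cells held 3.96 Chil4 UMIs per 1000 secretory UMIs (3.26 to 4.76). Macrophages held 3.97 (2.93 to 5.25), stromal cells 2.98 (2.12 to 4.07) and plasma cells 4.13 (3.25 to 5.18). The ratios of these 4 classes had overlapping intervals, and the epithelium as a whole held 8.39 (8.31 to 8.47).

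Cells with high Chil4 were separated from this level by a rule. A source cell held at least 5 Chil4 UMIs and at least 10 times the T-cell level of its library, that is 1031 CPM in the polyp. The polyp library held 182 source cells and the WT library held 0. Of the 182, 179 were epithelial by their markers and 3 were unassigned. None was a macrophage, a T cell or a stromal cell. They were 3.64% (3.13 to 4.20) of polyp epithelial cells and 2.31% of all kept polyp cells, yet they held 39214 of 42650 Chil4 UMIs (91.9%). Their summed level was 15004 CPM, and the other 4738 polyp epithelial cells had 66.6 CPM, below the 103 CPM of T cells. Source cells held 141 Chil4 UMIs per 1000 secretory UMIs, and the other epithelial cells 0.571, below the 3.96 of T cells. The rule picks cells by Chil4, so it sets in part their share of the UMIs and these gaps. The secretory divisor also differed, with 4716258 secretory UMIs in the 4738 other epithelial cells and 28318 in the 446 T cells. Within bins of total UMIs, however, the other epithelial cells held more Chil4 per cell than the other named classes. Their UMIs per cell were 0.332 at 500 to 1000 total UMIs, 0.362 at 1000 to 2000, 0.297 at 2000 to 5000, 0.496 at 5000 to 10000 and 0.976 above 10000, and the intervals were clear of those of the other named classes in 4 of the 5 bins, all but 2000 to 5000. The bin above 10000 has no upper limit, and its cells were not matched in depth. Its levels were close, 49.1 CPM in the other epithelial cells and 43.1 CPM in the other named classes, and its highest epithelial cell held 58 Chil4 UMIs. Weak Chil4 cells below the rule cannot be told apart from free RNA in these epithelial cells.

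Chil4 varied by orders of magnitude among source cells. The median source cell held 57 Chil4 UMIs, the quartiles were 23 and 160 UMIs, and the range was 5 to 3157. Chil4 made up a median of 0.636% of a source cell's UMIs and 11.8% in the highest, with 63 cells at 1% or more and 8 at 5% or more. The highest cell held 3157 Chil4 UMIs of 34635, together with 1627 of Tff1, a peptide of the gastric surface. The second held 2964 of 42133 and belonged to a cycling cluster. The third held 2480 of 20947. Of all Chil4 UMIs in kept polyp cells, 50% sat in 14 cells and 90% in 122 cells. Without those 14 cells the epithelial bound was at least 2301-fold.

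**Figure D2:**
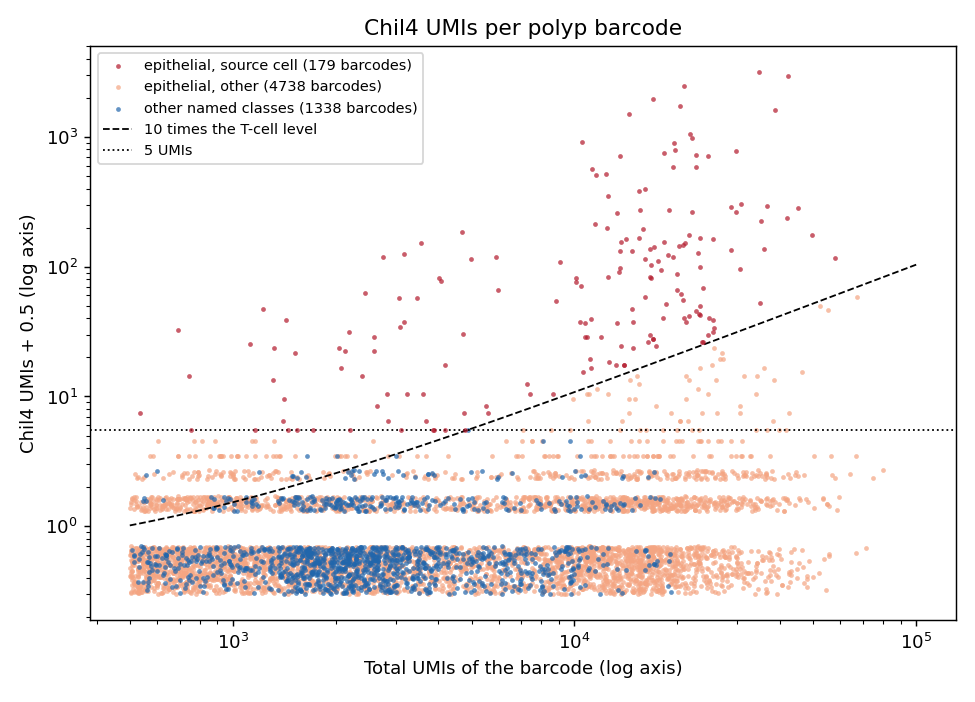
Chil4 UMIs (plus 0.5, log axis) against total UMIs (log axis) of each polyp barcode, by class. Source cells (dark red, 179 epithelial barcodes) lie above both the dotted line at 5 UMIs and the dashed line at 10 times the T-cell level, while no cell of another named class (blue) held more than 5 Chil4 UMIs.

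Cells near the limits were few beside the source cells. With the count of 5 UMIs alone, 242 cells qualified, and 60 of them missed the level. These 60 cells were 59 epithelial and 1 stromal, held a median of 9 and at most 58 Chil4 UMIs, and were deep, with a median of 21864 total UMIs. The highest among them reached 1023 CPM, and the lowest source cell 1044 CPM. Of polyp epithelial cells, 3214 held no Chil4 UMI and 1465 held 1 to 4. Source cells had a median of 13650 UMIs and other polyp epithelial cells 3859, so depth moved with the split. Median mitochondrial shares were 5.44% in source cells and 5.27% in the others. Among cells that passed the filters, doublet removal took 7.98% of those with at least 5 Chil4 UMIs and 5.89% of epithelial cells. The part of depth and of doublets in the split was not tested.

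Source cells were spread over several epithelial clusters, which are named here by number and leading genes. The genes under study were kept out of the variable genes of the clustering. Cluster c4, led by Shh, Slc5a5 and Stc2 with Tff1, held 54 source cells among 654 polyp cells (8.26%, Clopper-Pearson interval 6.26 to 10.6). Cluster c5, led by the mitotic genes Mxd3, Depdc1a and Kif2c, held 10 of 134 (7.46%, 3.64 to 13.3). Cluster c0, led by Bdh2, Pgc and Nme7, held 38 of 687 (5.53%, 3.94 to 7.51). Cluster c24, led by Ly6m, Psca and Clca1 with Muc5ac, held 6 of 138 (4.35%, 1.61 to 9.22). Cluster c16, led by Serpina3n, Mug1 and Spp1, held 42 of 1170 (3.59%, 2.60 to 4.82). Cluster c2, led by Mki67, Pclaf and Stmn1, held 16 of 453 (3.53%, 2.03 to 5.67). The interval of c4 lay above those of c16 and c2 and overlapped those of c0, c5 and c24.

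Other polyp epithelium held few, and cluster c1, led by haemoglobin genes and rRNA repeats, held 12 of 1630 barcodes (0.736%). Cluster c17, led by 2310057J18Rik, A2ml1 and Glp1r and holding Muc6 among its leading genes, had 1 source cell in 230. The endocrine cluster c11, led by Pyy, Fev and Chgb, had 1 in 351. Cluster c12 (T-cell genes Tnfrsf4 and Icos) had 0 in 813, and c6 (immunoglobulin genes) 0 in 277. A single source cell fell in c14, led by the stromal gene Pdgfra, and another in c8, a cluster led by macrophage genes. The barcode in c8 was epithelial by its own markers, with 788 Chil4 UMIs of 19681 and 959 of Tff1. With each cell thinned to 5000 UMIs, source cells were 10.7% (7.15 to 15.1) of c0, 9.98% (7.42 to 13.05) of c4, 8.47% of c5, 7.76% of c2, 4.20% of c24 and 3.68% (2.53 to 5.15) of c16. At matched depth c0 and c4 stood above c16, with 0.581% (0.0147 to 3.20) in c11. The clusters c0, c2, c4, c16 and c24 together held 3102 polyp cells and 9 WT cells, so WT had hardly any cells of these kinds in which Chil4 could be read. The cycling cluster c5 held 134 polyp and 19 WT cells, and c1 held 1630 polyp and 8 WT barcodes.

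**Figure D3:**
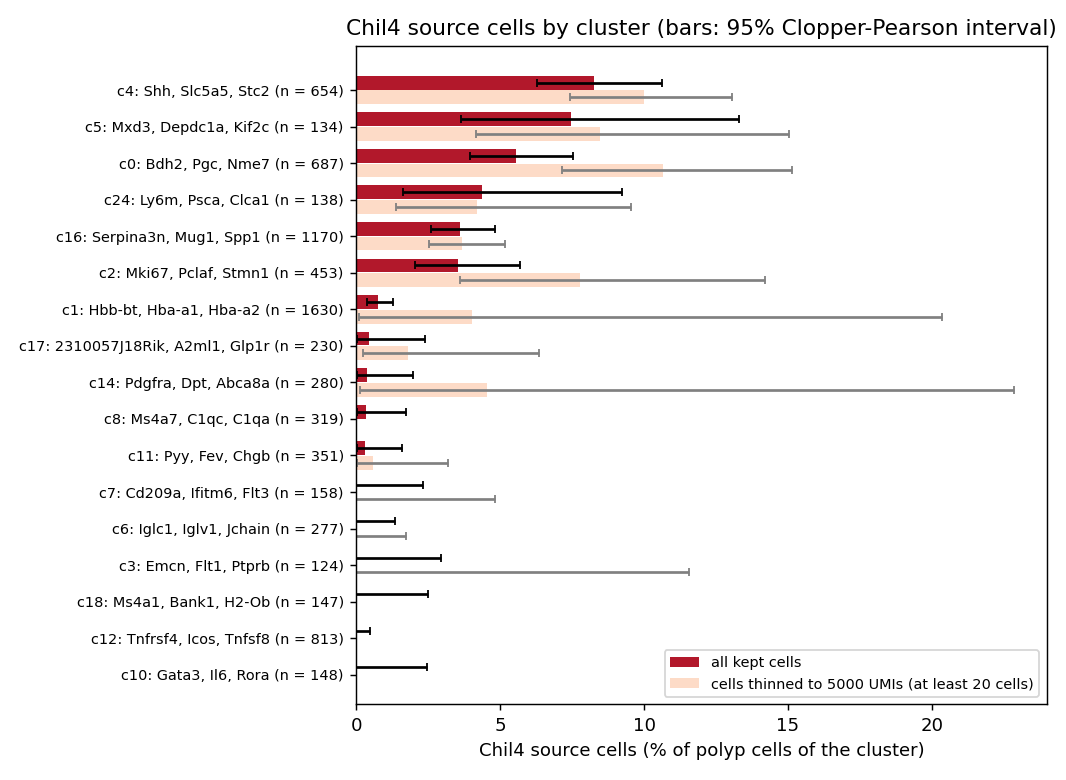
Share of Chil4 source cells (%) in each cluster with at least 100 polyp cells, for all kept cells (dark bars) and for cells thinned to 5000 UMIs (pale bars, at least 20 cells). Error bars are 95% Clopper-Pearson intervals. Clusters c4, c5 and c0 led at 8.26%, 7.46% and 5.53%, and the immune clusters c6, c7, c10, c12 and c18 stood at 0.

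Source cells carried further genes at higher levels than the other polyp epithelial cells. Of 13396 genes with at least 20 UMIs, 1.43% were higher in source cells and 8.73% lower by the same rule. Sprr2a3, a small proline-rich protein of the cornified envelope known as an epithelial target of IL-13, had 4029 CPM in source cells and 567 CPM in the others (7.11 times, 6.94 to 7.27). It was found in 94.97% of source cells and 51.4% of the others. It was higher in source cells within each of the 7 clusters with at least 6 epithelial source cells, by 3.25 times in c5 and up to 8.29 times in c0. Gsdmc2, a gasdermin, was 18.9 times higher (14.9 to 23.9), on 163 UMIs in source cells and 134 in the others. It was found in 10.6% of source cells and 1.27% of the others, and 1 source cell held 42 of the 163 UMIs. Within clusters it was 14.2 times higher in c4 (11.0 to 18.5) and 40.5 times in c0, there on few UMIs and with a wide interval of 8.39 to 385. It had intervals including 1 in c2 and c24, held 0 UMIs in source cells of c1 and c5, and had too few UMIs in c16. Bpifb1, a secreted protein of airway epithelium, was 12.3 times higher (10.8 to 14.1) and 39.2 times higher in c4. In c5 its ratio was 1.74 (0.529 to 4.48), an interval that includes 1, and source cells of c1 held 0 UMIs.

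The remaining 7 of the 10 genes named by the rule had smaller counts or ratios. Anxa8 was 7.46 times higher, Pga5, a pepsinogen, 7.11 times, Sprr2a1 4.03 times, Fam3c 3.26 times, Egln3, an oxygen sensor, 3.16 times and Clca1, a mucus-processing protein raised by IL-13, 2.45 times. Sprr2a3 and Sprr2a1 are close copies, and the split of reads between them is uncertain. Clca1 without its top source cell was 1.84 times higher, and within clusters it was 0.665 in c5 and had intervals including 1 in c0, c5 and c16. Of the 10 measured genes in the list of type 2 targets, which holds Sprr2a3 and Clca1, these 2 were higher in source cells, 1 was lower and 7 were neither, with a median log2 ratio of −0.54. Shares over all genes were 1.43% higher and 8.73% lower, with a median of −0.10. Both higher genes were already among the 10 picked as highest in these same cells, so their count in the list adds nothing separate. Ccl4, a chemokine, was 3.57 times higher, but 201 of its 224 UMIs sat in 1 source cell, and without it the ratio was 0.369. Thus 9 of the 10 genes stayed higher without their top cell.

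Of 12 marker lists of epithelial kinds, 10 had no gene higher in source cells. The exceptions were Pga5 among 3 chief genes and Krt13 among 2 measured squamous genes, Krt13 being on 7 and 25 UMIs. Among all 13396 genes, 1.43% were higher and 8.73% lower, so a short list with no gene higher says little about the kind of cell. The gastric surface list had 0 of 5 genes higher and 2 lower, with a median log2 ratio of −0.13, against −0.10 over all genes. Tff1 had 41139 CPM in source cells and 37849 in the others, while Muc5ac was at 0.253 times (0.185 to 0.337). Of the gland mucous list, 3 of 4 were lower (median −1.47), among them Muc6 at 0.292 and Cblif at 0.106 times. In the endocrine list 3 of 4 were lower, and Gast, the gene of gastrin, had 43.7 CPM in source cells and 1403 CPM in the others. In the polyp library 9 cells held 50% of Gast UMIs, and within c0, c4, c16 and c24 its ratios of 0.696, 1.34, 1.28 and 1.51 all had intervals including 1. Chgb had a ratio of 1.09, with 600 of 613 UMIs in 1 source cell. All 4 goblet genes, all 3 Paneth genes and all 3 measured enterocyte genes were lower. Of the regenerative genes, Clu was at 0.883 times and Spp1 at 0.304. The cycling genes Mki67 and Top2a were at 1.11 and 1.06 times. The receptors Il4ra and Il13ra1 were at 0.809 (0.607 to 1.06) and 0.993 (0.764 to 1.27) times, and none of the 9 genes of type 2 receptors and signalling was higher or lower by the rule.

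**Figure D4:**
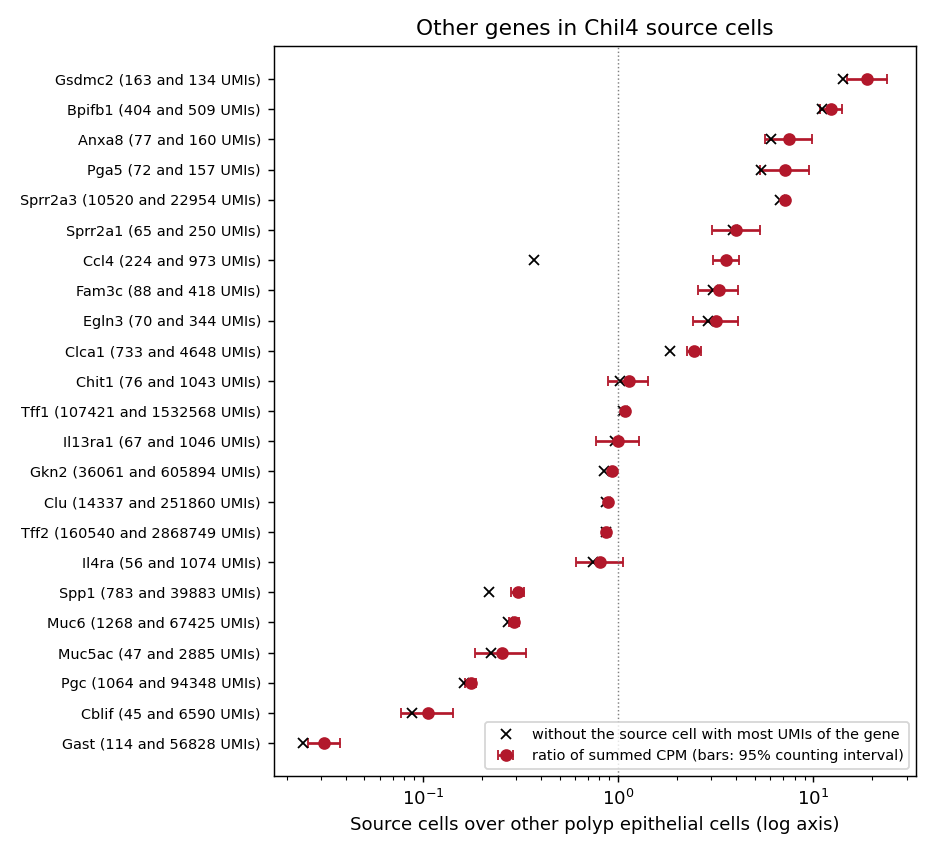
Ratio of summed CPM in Chil4 source cells over other polyp epithelial cells (log axis), for the 10 genes named by the rule and 13 genes of the marker lists chosen after their values were seen. Points are ratios with 95% counting intervals, crosses the ratio without the source cell that held most UMIs of the gene, and labels give UMIs in source cells and in the others. Gsdmc2 (18.9) and Bpifb1 (12.3) stood highest, Gast (0.031) lowest, and Ccl4 was the single gene whose cross fell on the other side of 1.

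Chil3 was scarce, with 85 UMIs in all polyp barcodes and 3 in WT, and its counts fell in 2 places. In kept polyp cells it had 81 UMIs in 34 cells. Of these, 46 UMIs lay in 18 Chil4 source cells and 31 UMIs in 12 cells of the myeloid clusters c7 (led by Cd209a, Ifitm6 and Flt3) and c8 (led by Ms4a7, C1qc and C1qa). The other 7229 polyp cells held 4 UMIs. The highest cell held 12 Chil3 UMIs beside 1940 of Chil4, and the second held 7 beside 76. All 182 source cells together, which hold Chil4 by their rule, had 1.17 Chil3 UMIs per 1000 of Chil4 (0.859 to 1.57). In c7 and c8 without source cells the ratio was 270 per 1000 (175 to 404), a gap that the rule sets in part, 9 of the 12 cells held no Chil4, and no cell held more than 5 Chil3 UMIs. The low ratio in source cells is the place where reads shared with Chil4 could weigh, and their part was not tested.

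By class, Chil3 stood at 1.11 CPM (0.821 to 1.48) in polyp epithelium and at 0 UMIs in WT epithelium, at least 5.39-fold. In macrophages it had 12.9 CPM (5.19 to 26.6) in the polyp, on 7 UMIs in 2 cells, and 0 UMIs in the 20 WT macrophages, whose limit of 38.1 CPM lies above the polyp level. Polyp and WT T cells and stromal cells held 0 Chil3 UMIs. In the 446 polyp T cells this allows a UMI in up to 0.673% of cells, a limit on detection and not on how many cells express the gene. The 3 WT UMIs lay in 1 cell with 14 monocyte-marker UMIs in c8. Most of the 12 polyp cells in c7 and c8 did not reach the marker rule for a single class and stayed unassigned.

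Chia1, the active enzyme, had UMIs in the polyp library and none in WT, and 1 polyp cell held 49.8% of those in kept cells. All polyp barcodes held 296 UMIs, against 0 in WT. Polyp epithelium had 5.38 CPM (4.71 to 6.12) and WT epithelium 0 UMIs, at least 26.0-fold. Of 263 UMIs in kept polyp cells, 131 sat in 1 cell of cluster c0, and the next cell held 4. Without that cell the bound was at least 11.3-fold. The cell had 32096 UMIs and no Chil4. Clps, the cofactor of pancreatic lipase, made up 35.8% of it, Pla2g1b, a secreted phospholipase, 16.4% and Pgc, the chief-cell product progastricsin, 10.6%. It also held 62 UMIs of Atp4a, a subunit of the parietal-cell proton pump, and 56 of Cblif, gastric intrinsic factor. In other polyp epithelium Clps was 0.0695% of UMIs and Pgc 0.214%.

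The rest of Chia1 was thinly spread. Without the top cell, cluster c1 held 90 UMIs in 1630 barcodes (50.1 CPM), c2 4.12 CPM, c0 1.95 and c4 1.36 CPM, with at most 4 UMIs in a cell. Barcodes of c1 had a median of 745 UMIs, and outside source cells Chil4 was also higher there, at 312 CPM against 38.9 to 142 CPM in the other clusters of at least 100 polyp cells. Macrophages and T cells of the polyp held 0 Chia1 UMIs, and 202 stromal cells held 1. The share of epithelial cells with a UMI was 1.55% (1.22 to 1.93), against 0 of 446 T cells, which allows up to 0.673% with a UMI. Thinned to 1000 UMIs, it was 0.532% (0.330 to 0.812) in epithelium, below the T-cell limit of 0.685%, so a difference was not detectable at that depth.

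**Figure D5:**
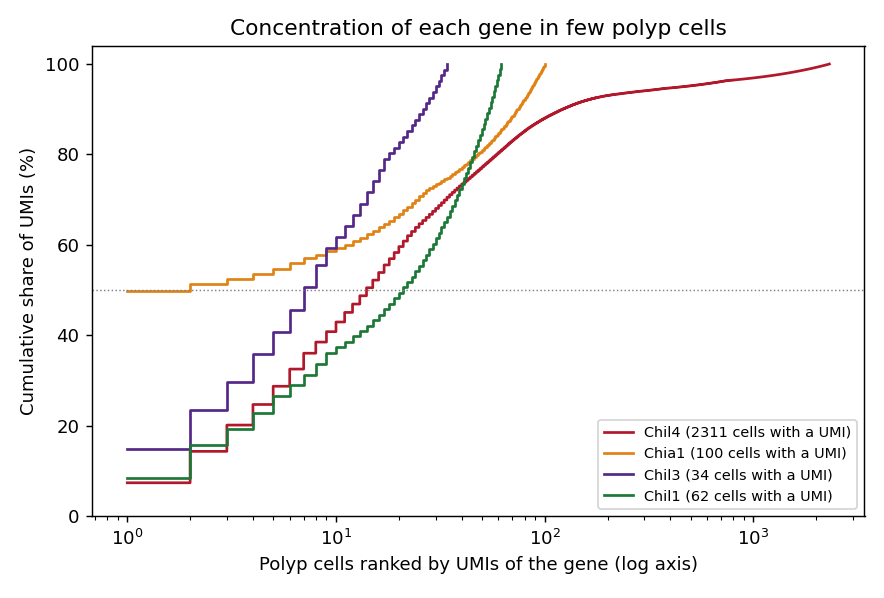
Cumulative share of UMIs (%) over polyp cells ranked by UMIs of each gene (log axis). Of Chil4 UMIs, 50% sat in 14 of 2311 cells with a UMI, 1 cell held 49.8% of Chia1, and Chil1 was spread over 62 cells with at most 7 UMIs each.

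Chil1 was low in both libraries and spread thinly over cells. In kept cells it had 83 UMIs in 62 polyp cells, 53 of which held 1 UMI, and 14 UMIs in 6 WT cells. Polyp epithelium had 1.81 CPM (1.43 to 2.26) and WT epithelium 0.344 CPM (0.112 to 0.804), a ratio of 5.25 (2.16 to 16.6) on 78 and 5 UMIs. The polyp UMIs lay mostly in c4 (26 UMIs) and c16 (25 UMIs), and the top cells held 7 and 6 UMIs. In stromal cells the order was the other way, 1.98 CPM on 1 UMI in the polyp and 19.2 CPM on 4 UMIs in WT, a ratio of 0.103 with an interval of 0.00209 to 1.04 that includes 1. Of the WT UMIs, 9 lay in c27, a cluster of 6 WT cells led by Upk3b and Msln, genes known from mesothelium, and 5 lay in c22, led by Muc2 and Lyz1. The 4 UMIs of WT stromal cells were all among those of c27. Macrophages and T cells held 0 Chil1 UMIs in both libraries, and the 25 polyp cells of c9, led by the neutrophil genes S100a9 and S100a8, held 2. In the neutrophil class of 23 polyp cells these 2 UMIs came to 63.5 CPM (7.69 to 229). That is above the level of polyp epithelium, but on too few UMIs to be read.

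The order of the levels in polyp epithelium was Chil4 (972 CPM), Chia1 (5.38), Chil1 (1.81) and Chil3 (1.11), in CPM, which 3′ counting does not tie to transcript length. The intervals of Chil1 (1.43 to 2.26) and Chil3 (0.821 to 1.48) overlapped. Without its top cell Chia1 stood at 2.35 CPM.

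Other genes of the family were also read in epithelium. Chit1, chitotriosidase and the second active chitinase, had 26.0 CPM in polyp epithelium and 0.138 CPM in WT epithelium (ratio 188, 52.0 to 1558, on 1119 and 2 UMIs). It was spread over 635 polyp cells with at most 12 UMIs and did not follow the source cells, which had 1.13 times (0.883 to 1.43) the level of other epithelium. Chit1 was among the leading genes of c16. Of the 4 listed family members with enough UMIs, 3 were higher in polyp epithelium, Chit1, Chil5 (at least 2.81-fold, on 25 UMIs) and Ctbs (2.80 times), and 0 were lower, against 28.3% higher and 18.1% lower over all genes. Chid1 was at 1.18 times. The median log2 ratio of the 4 was 2.78, against 0.15 over all genes.

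Il13, Il4 and Il5, genes of type 2 cytokines, were counted mostly in clusters led by immune genes. Il13 had 84 UMIs in kept polyp cells and 1 in WT, and 59 of the polyp UMIs lay in cluster c10, led by Gata3, Il6 and Rora. Il4 had 293 UMIs in the polyp and 5 in WT, with 201 in the mast-cell-gene cluster c15 (Tpsb2, Cpa3), at 1328 CPM, and 60 in c10. Il5 had 33 UMIs in the polyp and 1 in WT, and 32 of the 33 lay in c10. Il33, an epithelial alarmin, had 501 UMIs in the polyp and 75 in WT, of which c16 held 289. In epithelium it had 9.93 CPM in the polyp and 2.07 CPM in WT, 4.80 times. In stromal cells Il33 went the other way, with 79.0 CPM in the polyp and 173 CPM in WT, 0.457 times (0.284 to 0.737). Il25 had 4 UMIs in the polyp epithelial class, all in cluster c3, led by Emcn, Flt1 and Ptprb, and 0 in WT. In epithelium 3 of 5 measured ligands were higher in the polyp, and 1, Areg, was lower at 0.471 times, against 28.3% higher and 18.1% lower over all genes. Il13 was 1 of the 3, on 24 UMIs in the polyp epithelial class and 1 in WT. The epithelial clusters c2, c5 and c16 held 1 Il13 UMI each and c11 held 2. Most of the 24 thus lay in barcodes outside the epithelial clusters, so the call for Il13 cannot be read as epithelial.

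Genes that type 2 cytokines are known to raise in epithelium or macrophages went both ways in epithelium. Of 12 measured genes in that list of 18, 4 were higher in polyp epithelium and 5 lower, with a median log2 ratio of 0.21. Over all epithelial genes 28.3% were higher, close to the share of this list, and 18.1% were lower. Sprr2a3 had 777 CPM in the polyp and 42.9 CPM in WT epithelium (18.1 times). The feedback genes of STAT signalling Cish and Socs1 went opposite ways, at 2.25 times (1.64 to 3.13) and 0.649 times (0.513 to 0.825). Itln1, a goblet and Paneth lectin, was at 0.0717 times and Ang4, a Paneth peptide, at 0.0538. Among the receptors and signalling genes 2 of 9 were higher, below the 28.3% of all genes, and 0 were lower. The 2 were Il4ra (1.88 times) and Il1rl1 (5.89 times, on 35 and 2 UMIs in the epithelial class). Of 213 Il1rl1 UMIs in kept polyp cells, c15 held 74, c12 57 and c10 55, while c4 held 2 and c16 1. Most of the 35 thus lay in barcodes outside the epithelial clusters, so the Il1rl1 ratio cannot be read as epithelial. In macrophages 3 of 8 measured genes of the list of type 2 targets were higher and 1, Mgl2, was lower at 0.459 times, against 7.93% and 6.28% of all genes. Mrc1 was at 1.09, Cd163 at 1.05 and Clec10a at 0.856 times, all with intervals including 1. Retnla, the other common marker of IL-4 exposure, had 73.8 CPM on 40 UMIs in the polyp and 0 UMIs in WT, at least 1.94-fold. The other genes called higher in macrophages were Ccl24 (4.17 times, 1.38 to 20.6) and Sprr2a3. Sprr2a3 had 90.4 CPM in polyp macrophages, 120 CPM in polyp T cells and 73.1 CPM in polyp stromal cells. The part of free RNA in its macrophage count was not tested. The partners of CHI3L1, the protein of Chil1, gave 2 higher and 1 lower of 3 measured in epithelium, with Cd44 at 9.25 and Lgals3 at 0.225 times, against 28.3% higher and 18.1% lower over all genes.

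Other genes were ranked by how alike their level was to each member over the 18 polyp clusters of at least 30 cells, among 9914 genes, as a description only. For Chil4 the highest Pearson correlations of log2(CPM + 1) were with Lamtor4 (0.89), Aifm1 (0.89), Gatd3a (0.87), Acsm3 (0.86) and Blvrb (0.86). For Chia1 they were with Pla2g1b (0.83), Clps (0.76), Atp4a (0.70), Gm14851 (0.68) and Defa30 (0.65). The clusters shared 1 library and its free RNA, and the top Chia1 cell weighed on its own list.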

How the data were processed

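Single-cell 3′ v3 libraries (10x Genomics) were made from collagenase-digested tissue, per the labels. The deposited matrices held counts of UMIs per gene and barcode, per the file headers, whole numbers with no normalization. The submitters' processing notes named Cell Ranger 3.0.0 and mm10, while the matrix header named Cell Ranger 5.0.0. No deposited barcode had under 500 UMIs. The genes and lists were chosen with earlier results of these data known.

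A barcode needed 500 UMIs or more, 250 genes or more and a mitochondrial share of 25% or less. The automatic threshold of scrublet (scanpy 1.11.5) marked 0 doublets, so the highest scores up to 0.8% per 1000 cells were removed, 573 in the polyp library and 85 in WT. Classes were set from marker UMIs of 13 classes. Clusters came from Leiden at resolution 1 over both libraries, with 2000 variable genes, 30 components and 15 neighbours, without batch correction. Levels carry exact Poisson intervals, shares Clopper-Pearson intervals and ratios exact conditional binomial intervals, all at 95% and for counting error only. The floor of a zero was 3 counts. Genes with under 20 UMIs over both sides were not read. Thinning drew UMIs without replacement with a fixed seed. The genes named in source cells were the 10 with the highest lower bound of the ratio, at least 50 UMIs and a UMI in at least 10% of source cells. The ratio rule was tested on simulated data. Alternatives to the filters, classes, doublets, summing and thresholds were run. Sequences and motifs came from RefSeq promoter windows (GRCm38.p6), in which all 4 genes were found, and transcripts from GENCODE vM21, aligned with Biopython 1.88.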

Additional observations from a re-analysis of the deposited data

Results flagged for a closer look

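Chil4 was also present in polyp barcodes that the cell filters removed. These 5867 barcodes had 324.6 CPM (3211 UMIs), against 0 UMIs in the 6698 WT barcodes removed in the same way, whose limit was 0.173 CPM. Of the removed polyp barcodes, 40 held at least 5 Chil4 UMIs, up to 451. Chia1 in the same polyp barcodes had 2.83 CPM (28 UMIs, at most 3 in a barcode), against 0 UMIs in the removed WT barcodes. These barcodes entered no comparison, and they were flagged because a signal stood in data left out while the WT library showed none.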

How the results depend on the processing

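No paired analysis was possible because each group was 1 library and no number links the mice. Over all alternatives the 4 epithelial ratios kept their direction, and 63 of 95 values stayed within the counting interval of the reported value or, for the number of source cells, within 1.5 times of it. The bound for Chil4 in epithelium was 2699-fold under a strict filter (at least 1000 UMIs, at most 10% mitochondrial), 8239 with no mitochondrial limit, 4585 with a 4-fold class rule, 4752 with a looser one, 4233 with Leiden classes, 3350 from means over cells, 4535 without the clusters led by rRNA-repeat genes and 2301 without the 14 top Chil4 cells. Bounds against 0 UMIs follow the WT depth that each filter leaves. For Chil3 in epithelium the bound was 3.34 under the strict filter, 9.48 with no mitochondrial limit, 3.17 without the 14 cells and 4708 with Chil3 and Chil4 summed. For Chia1 it was 11.2, 45.7, 17.8 with Leiden classes, 115 from means over cells, 17.7 without the rRNA-repeat clusters and 11.3 without its top cell. The thinned share of polyp epithelial cells with Chil4 was 12.3% under the strict filter and 12.4% with Leiden classes. At 500 UMIs the shares were 10.9% in epithelium, 6.28% in T cells, 5.22% in macrophages and 4.46% in stromal cells, and at 2000 UMIs 16.2%, 14.6% and 18.6% in the first 3, so macrophages passed epithelium there. Chil4 per 1000 secretory UMIs in epithelium was 8.52 under the strict filter, 8.27 with the 4-fold rule, 8.17 with Leiden classes and 129 without Tff1 and Tff2, where T cells had 96.7. The number of source cells lay between 137 and 242. The alternatives without rRNA-repeat clusters, without top cells and with other free RNA levels were chosen after seeing the data. A free RNA level from barcodes under 500 UMIs was not run because the files used here hold none. With 1 library a group, differences between mice and between libraries cannot be told apart from genotype.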
